A study of Mus musculus with 6 samples.

Results

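Tooth enamel is built by proteins that ameloblasts, the epithelial cells covering the growing tooth, secrete and later remove. The 10 genes described here are the enamel matrix and maturation genes Amelx, Ambn, Enam, Mmp20, Amtn, Odam, Klk4, Wdr72, Slc24a4 and Fam20a. They were taken by gene symbol from a set proposed with earlier results of these data known, and are 10 of the 25703 genes in the deposited count table. All 10 had enough reads to be tested. RNA from the proximal region of mouse incisors was sequenced in 6 libraries. The Arid1a cKO group has 3 libraries of genotype Gli1-CreER;Arid1a fl/fl and the control group 3 libraries of genotype Arid1a fl/fl. Both groups were C57BL/6 mice of 6 weeks, both carried the floxed Arid1a allele, and the labels give tamoxifen for both, at 1.5 mg per 10 g body weight on each of 3 days, begun when the mice were 1 month old. The CreER allele is the labelled difference between them. Gli1-CreER is a tamoxifen-inducible recombinase active where the Hedgehog target Gli1 is expressed, which in the incisor includes mesenchymal stem cells and also dental epithelium. How much of the epithelium had recombined was not analysed here. The product of Arid1a is a DNA-binding subunit of SWI/SNF complexes, which remodel chromatin. The comparison asks how the loss of Arid1a from Gli1-expressing cells and their descendants alters the transcripts of the growing incisor, here those of enamel formation.

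The mouse incisor grows throughout life, so that all steps of enamel formation lie along its length, with the youngest cells at the proximal end. In the secretory stage, ameloblasts export the matrix proteins amelogenin, ameloblastin and enamelin together with the protease that trims them. In the later maturation stage the remaining protein is degraded by a second protease, calcium and other ions are moved in, and new surface proteins attach the cells to the hardening enamel. Amelx, Ambn, Enam and Mmp20 are the secretory genes of the set, and the other six stand for maturation. Fam20a, a pseudokinase that assists the secretory kinase Fam20c, is not confined to ameloblasts.

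The libraries held markers of the labelled tissue. Dspp, the main dentin matrix gene of odontoblasts, ranged over 1260 to 4521 CPM (counts scaled by library size, where sizes carry TMM factors), and the epithelial keratin Krt14 ranged over 95.2 to 266 CPM. Library totals were 27300932 to 37908478 estimated counts. Arid1a itself was lower in all 3 Arid1a cKO libraries. It had 136, 139 and 145 CPM in Arid1a cKO replicates 1 to 3, against 222, 249 and 223 CPM in control replicates 1 to 3. It fell by 0.72 on the log2 scale, with an SE of 0.0677 and adjusted p = 0.00802. Tests are the quasi-likelihood F test of edgeR, two-sided, and p-values were adjusted after Benjamini and Hochberg over the 19613 genes tested. Whether each library is a mouse of its own is not stated in the labels. The p-values then reflect the spread among these 6 libraries, part of which may be technical. In bulk RNA, fewer cells of a type and less RNA per cell cannot be told apart.

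The 250 bases upstream of the start are shown for 4 genes on which the results turn. Amelx and Enam varied together over the libraries, Ambn lies beside Enam and varied far less, and Klk4 had the largest difference between the genotypes. The sequences are from RefSeq (GRCm38.p6), which holds 9 of the 10 genes and has no entry for Wdr72, and are written 5′ to 3′ on the strand of the gene, ending at the base before the RefSeq start. They are chrX:169187210-169187459 on the minus strand for Amelx and, on the plus strand, chr5:88487725-88487974 for Enam, chr5:88455741-88455990 for Ambn and chr7:43880910-43881159 for Klk4. Capitals mark matches on either strand to the TATA box letters TATAAA, the CCAAT box, the homeodomain core TAATTG and the RUNX core TGTGGT.
Amelx: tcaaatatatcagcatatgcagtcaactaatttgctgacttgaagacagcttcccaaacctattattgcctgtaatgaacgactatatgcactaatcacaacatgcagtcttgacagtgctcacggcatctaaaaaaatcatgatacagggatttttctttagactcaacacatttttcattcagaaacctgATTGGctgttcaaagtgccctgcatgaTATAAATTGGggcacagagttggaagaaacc
Enam: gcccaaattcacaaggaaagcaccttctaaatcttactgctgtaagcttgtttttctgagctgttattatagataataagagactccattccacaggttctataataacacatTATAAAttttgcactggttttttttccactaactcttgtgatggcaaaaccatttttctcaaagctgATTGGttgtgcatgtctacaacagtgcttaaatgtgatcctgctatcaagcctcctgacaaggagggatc
Ambn: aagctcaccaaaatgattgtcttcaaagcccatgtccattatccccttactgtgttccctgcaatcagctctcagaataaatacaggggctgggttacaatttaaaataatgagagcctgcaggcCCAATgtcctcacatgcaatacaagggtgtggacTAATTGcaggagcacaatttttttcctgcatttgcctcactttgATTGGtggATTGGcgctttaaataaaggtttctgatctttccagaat
Klk4: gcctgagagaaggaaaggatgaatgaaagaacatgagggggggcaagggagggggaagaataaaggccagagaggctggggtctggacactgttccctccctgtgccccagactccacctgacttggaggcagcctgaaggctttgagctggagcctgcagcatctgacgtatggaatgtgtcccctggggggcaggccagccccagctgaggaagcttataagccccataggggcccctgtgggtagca
Amelx has TATAAA 31 bases before the start and an inverted CCAAT at 58 bases, and a second inverted CCAAT overlaps the TATAAA. Ambn has inverted CCAAT at 47 and 39 bases and Enam at 70 bases. The TATAAA of Enam stands farther off, 137 bases before the start. The search for CCAAT was added after the sequences were read. CCAAT stands within the last 100 bases in 6 of the 9 genes, Amelx, Ambn, Enam, Amtn, Odam and Fam20a, and in 18.9% of 32851 promoters of all genes. Within the whole 250 bases the shares are 7 of 9 genes and 33.8% of promoters. TATAAA occurs in 3 of 9 (Amelx, Enam and Mmp20) and in 12.4% of promoters, TAATTG in 2 of 9 (Ambn and Odam) and in 7.17%, and TGTGGT in 1 of 9 (Odam) and in 14%. No exact match to any of these occurs in the window of Klk4, though it holds the near match TATAAG close to its end, which the search did not count. The GC content of the Klk4 window, 59.6%, stands above the 38.4%, 37.6% and 42% of Amelx, Enam and Ambn. The mean over all promoters is 53.2%. A match is a description of the letters and not a binding site.

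Secretory transcripts far outnumbered those of maturation in this proximal tissue. Per kilobase of annotated exon, the median over the 6 libraries was 266 CPM per kb for Ambn, 199 for Amelx, 31.8 for Mmp20 and 17.5 for Enam. Among the maturation genes it was 14.2 CPM per kb for Fam20a, 1.94 for Klk4, 0.694 for Amtn, 0.413 for Slc24a4, 0.227 for Odam and 0.0632 for Wdr72. Ambn stood above Amelx in 3 of 6 libraries, Arid1a cKO replicates 2 and 3 and control replicate 1, so their order was not fixed. Enam and Fam20a also overlapped in their ranges, at 2.69 to 150.04 and 8.94 to 21.99 CPM per kb. The 4 secretory genes together took 0.175%, 0.0621% and 0.099% of all counts in Arid1a cKO replicates 1 to 3, against 0.0698%, 0.0613% and 0.374% in control replicates 1 to 3. The 6 maturation genes took 0.00565% to 0.00607% in Arid1a cKO and 0.00362% to 0.00795% in control, and most of that was Fam20a.

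**Figure D1:**
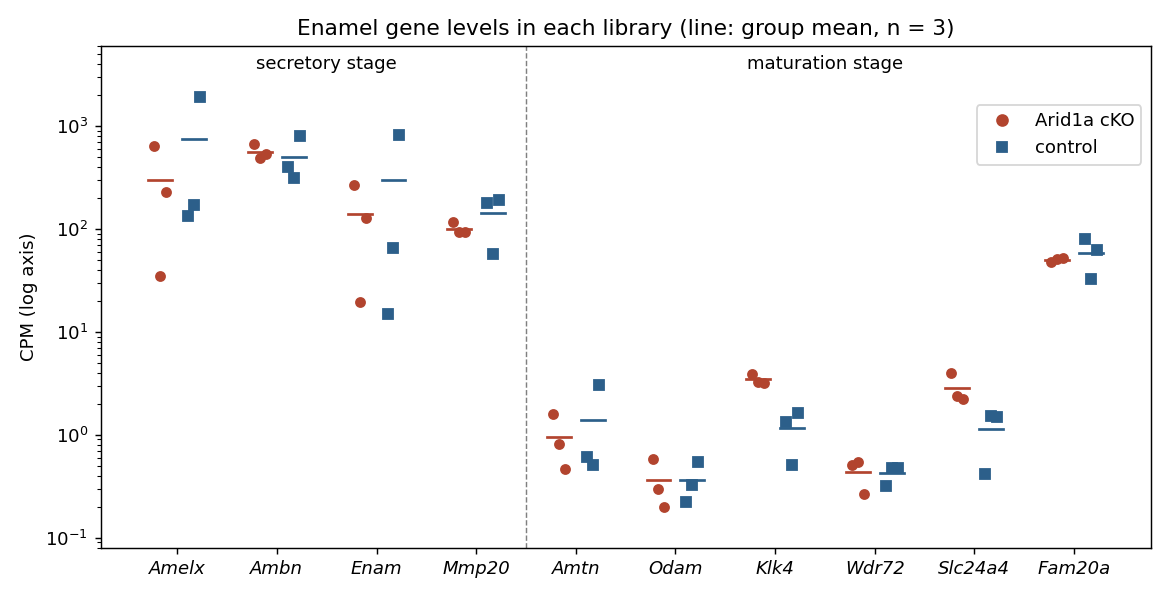
Level of each enamel gene in CPM on a log axis, with 1 point per library (circles Arid1a cKO, squares control) and a line at the group mean (n = 3 each). Amelx and Enam spread over more than an order of magnitude within each group, and of the 10 genes Klk4 and Slc24a4 are the ones whose groups do not overlap.

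Amelx encodes amelogenin, the most abundant protein of forming enamel (chromosome X, 169176114 to 169187200, mm10, minus strand). Its level was 634, 34.8 and 227 CPM in Arid1a cKO replicates 1 to 3, against 134, 171 and 1914 CPM in control replicates 1 to 3. Control replicate 3 was the highest and Arid1a cKO replicate 2 the lowest, and the remaining libraries of both groups interleaved. The 54.9-fold range over the 6 libraries was far beyond counting error, as the smallest count was 1287. Means were 299 ± 306 CPM in Arid1a cKO and 740 ± 1017 CPM in control (SD, n = 3 each). The log2 fold change of -1.31 (SE 1.56, 95% interval -5.44 to 2.82) did not pass (edgeR adjusted p = 0.689), and without control replicate 3 it was 0.98. Amelx lies within Arhgap6, which is transcribed from the other strand, and the sources used here do not say whether counting used strand. They share 0 exonic bases, and Arhgap6 was at 3.60 to 5.28 CPM in Arid1a cKO and 2.61 to 3.52 CPM in control.

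Enam encodes enamelin, the largest of the enamel matrix proteins (chromosome 5, 88487975 to 88506049, plus strand). It had 269, 19.6 and 127 CPM in Arid1a cKO replicates 1 to 3, against 14.8, 64.9 and 824 CPM in control replicates 1 to 3. The highest library was again control replicate 3, the lowest was control replicate 1, and the groups overlapped. The range was 55.7-fold. The log2 fold change was -1.12 (SE 1.76, 95% interval -5.83 to 3.59, edgeR adjusted p = 0.767), and it was 1.81 without control replicate 3. The spread within groups of log2 CPM, pooled over both genotypes, was 2.12 for Amelx and 2.49 for Enam, at percentiles 99.8 and 99.9 of the 19613 genes tested. The Amelx to Enam ratio of CPM was 2.36, 1.78 and 1.78 in Arid1a cKO replicates 1 to 3 and 9.08, 2.64 and 2.32 in control replicates 1 to 3. In 5 libraries the pair therefore kept a ratio of 1.78 to 2.64, while control replicate 1 held less Enam for its Amelx.

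Ambn and Mmp20 moved over a much narrower range. Ambn encodes ameloblastin, a matrix protein that ameloblasts also use for adhesion (chromosome 5, 88455991 to 88468531, plus strand). It had 676, 490 and 530 CPM in Arid1a cKO replicates 1 to 3, against 398, 314 and 801 CPM in control replicates 1 to 3. Its 3 Arid1a cKO values fell between the control extremes (log2 fold change 0.16, SE 0.359, 95% interval -0.71 to 1.04, edgeR adjusted p = 0.835), and without control replicate 2 the log2 fold change was -0.07. The Amelx to Ambn ratio of CPM was 0.939, 0.0711 and 0.428 in Arid1a cKO replicates 1 to 3 and 0.337, 0.544 and 2.39 in control replicates 1 to 3. Arid1a cKO replicate 2 thus held Ambn at a level like that of its group with little Amelx. Mmp20 encodes enamelysin, the protease of the secretory stage, which odontoblasts make as well (chromosome 9, 7628231 to 7674979, plus strand). It had 116, 93.3 and 93.3 CPM in Arid1a cKO replicates 1 to 3, against 180, 56.9 and 190 CPM in control replicates 1 to 3. The low value was control replicate 2, the library with the lowest Dspp (1260 CPM). The log2 fold change was -0.50 (SE 0.461, 95% interval -1.66 to 0.67, edgeR adjusted p = 0.588). Without control replicate 2, Mmp20 was called lower (log2 fold change -0.86, edgeR adjusted p = 0.0272), in a fit that called 1.1% of all genes lower.

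**Figure D2:**
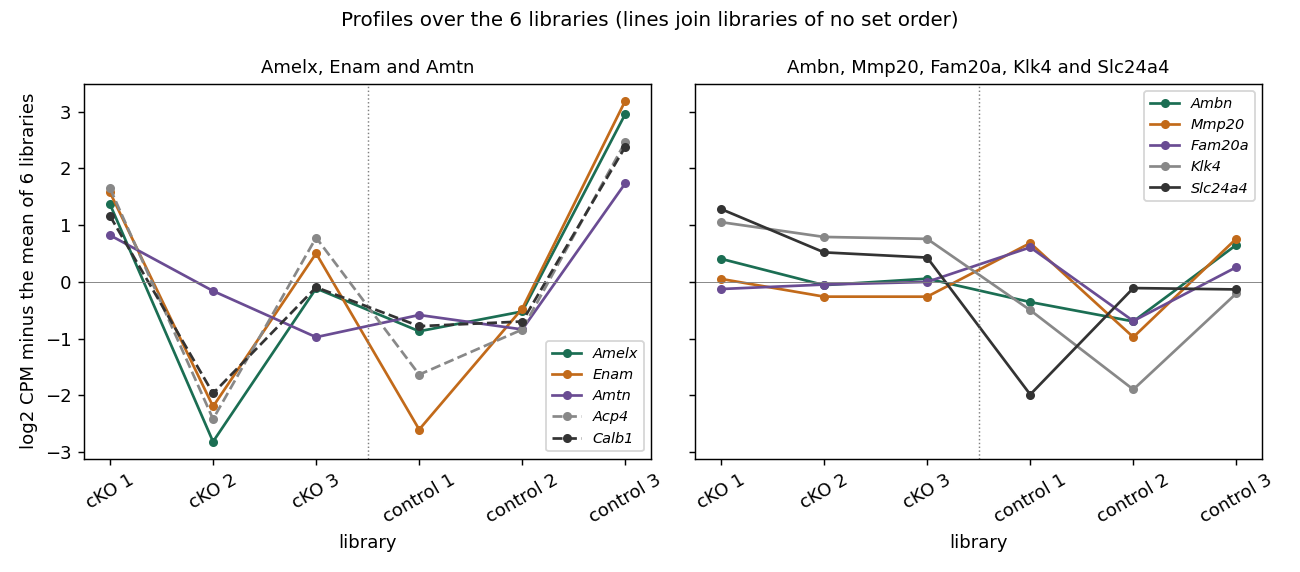
Log2 CPM of each gene minus its mean over the 6 libraries, with Arid1a cKO left of control and lines only joining the points of a gene. Amelx and Enam, with Acp4 and Calb1 (dashed), peak in control replicate 3 and dip in Arid1a cKO replicate 2, and Enam is lower still in control replicate 1. Ambn, Mmp20 and Fam20a stay within about a log2 unit of their means.

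Klk4, the protease that clears the matrix during maturation (chromosome 7, 43881160 to 43885804, plus strand), had the largest difference of the set. Its level was 3.92, 3.28 and 3.20 CPM in Arid1a cKO replicates 1 to 3, against 1.34, 0.507 and 1.64 CPM in control replicates 1 to 3. Every Arid1a cKO library stood above every control library. These values rest on 154, 121 and 97 counts in Arid1a cKO and 42, 14 and 45 counts in control. The cells that carried these reads cannot be told apart in bulk RNA. Means were 3.47 ± 0.399 CPM in Arid1a cKO and 1.16 ± 0.588 CPM in control (SD, n = 3 each), and the fitted difference was 2.97-fold (log2 fold change 1.57, SE 0.368, 95% interval 0.72 to 2.43). The edgeR test did not pass after adjustment over all genes (adjusted p = 0.0587). DESeq2 called Klk4 higher (adjusted p = 0.00133), as did limma on the authors' normalized table with a pseudocount of 1 (adjusted p = 0.0484) or 5 (adjusted p = 0.0438), while limma-voom did not (adjusted p = 0.052). DESeq2 called 4.47% of all genes higher, and limma on the authors' table called 1.01% and 1.26% higher with pseudocounts of 1 and 5. Over all alternatives the adjusted p of Klk4 ran from 0.00133 to 0.273.

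Slc24a4, a potassium-dependent sodium-calcium exchanger of maturation ameloblasts (chromosome 12, 102128733 to 102267091, plus strand), was the other gene with separate groups. It had 4.001, 2.35 and 2.21 CPM in Arid1a cKO replicates 1 to 3, against 0.414, 1.52 and 1.50 CPM in control replicates 1 to 3. The lowest value, control replicate 1, was 13 counts. The log2 fold change was 1.33 (SE 0.477, 95% interval 0.21 to 2.45), and the test did not pass (edgeR adjusted p = 0.165). Its log2 fold change was positive in all 15 alternatives that gave it a value, and none called it, with adjusted p from 0.0504 to 0.572. The gene is also expressed outside ameloblasts, and the cells that carried these reads cannot be told apart here.

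Fam20a had 48, 50.7 and 52.4 CPM in Arid1a cKO replicates 1 to 3, against 79.9, 32.5 and 62.7 CPM in control replicates 1 to 3 (chromosome 11, 109669749 to 109722279, minus strand). The Arid1a cKO libraries were close together and lay inside the control range (log2 fold change -0.21, SE 0.311, 95% interval -0.98 to 0.55, edgeR adjusted p = 0.741; 0.09 without control replicate 1). Amtn, which encodes amelotin of the cell-to-enamel junction (chromosome 5, 88376108 to 88385916, plus strand), had 63, 30 and 14 counts in Arid1a cKO replicates 1 to 3, against 19, 14 and 83 counts in control replicates 1 to 3. As with Amelx, control replicate 3 was highest and Arid1a cKO replicate 1 next (log2 fold change -0.50, SE 0.787, 95% interval -2.39 to 1.39, edgeR adjusted p = 0.763; 0.80 without control replicate 3).

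Odam and Wdr72 were barely detected. Odam, whose protein lies with amelotin at that junction (chromosome 5, 87885029 to 87894174, plus strand), had 23, 11 and 6 counts in Arid1a cKO replicates 1 to 3, against 7, 9 and 15 counts in control replicates 1 to 3. Wdr72, needed for vesicle traffic in maturation ameloblasts (chromosome 9, 74110356 to 74283308, plus strand), had 20, 20 and 8 counts in Arid1a cKO replicates 1 to 3, against 10, 13 and 13 counts in control replicates 1 to 3. The groups overlapped in both genes. An exact 95% Poisson interval, which covers counting error only, runs from 2.20 to 13.1 for 6 counts and from 12.2 to 30.9 for 20 counts. Neither gene was called between genotypes (edgeR adjusted p = 0.987 for Odam and 0.928 for Wdr72). The log2 fold change was 0.02 for Odam (SE 0.507, 95% interval -1.15 to 1.196) and 0.08 for Wdr72 (SE 0.378, -0.79 to 0.96). These intervals are narrower than those of Amelx (-5.44 to 2.82) and Enam (-5.83 to 3.59).

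Of the 10 enamel genes, 0 were called higher and 0 lower by the edgeR quasi-likelihood test. The background was 777 of 19613 genes (3.96%) called in either direction. At an unadjusted p under 0.05 the count was 2 of 10, Klk4 and Slc24a4, against 22% of all genes. The same 2 genes were the ones whose groups did not overlap, both higher in Arid1a cKO, and 13.8% of all genes were separate in that direction. DESeq2 and limma on the authors' table each called 1 of the 10, Klk4, and limma-voom called 0, beside 3.4% of all genes. The median log2 fold change was -0.81 over the 4 secretory genes and 0.05 over the 6 maturation genes, beside 0.00 over all genes tested. For Amelx, Enam and Amtn the 95% intervals spanned more than 3 log2 units, so that these libraries bound their genotype difference only loosely.

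**Figure D3:**
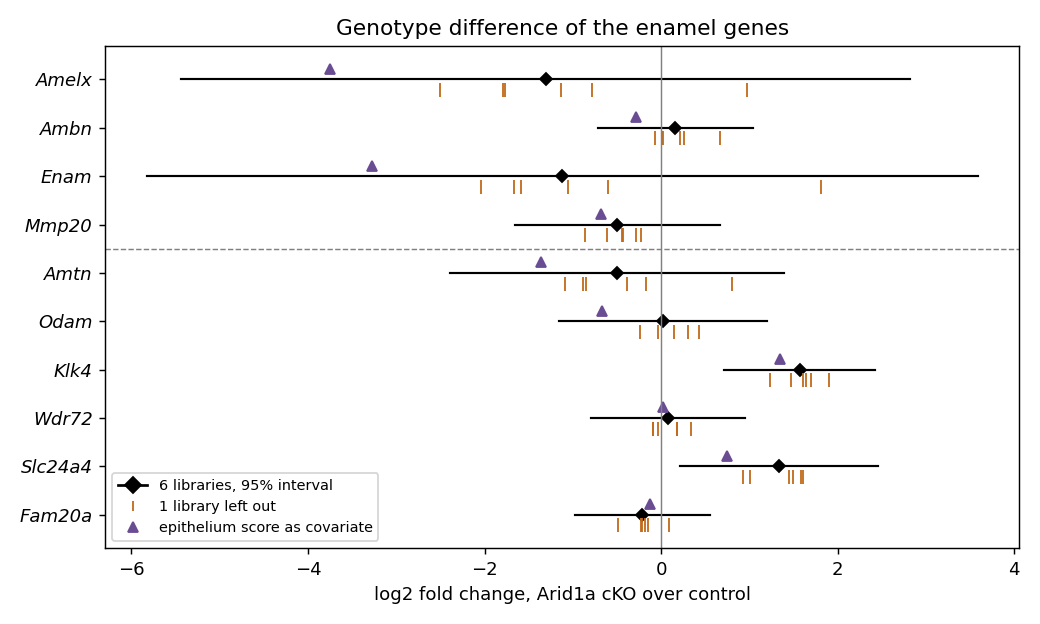
Log2 fold change of each enamel gene, Arid1a cKO over control, with its 95% interval (diamonds and bars), the values with 1 library left out (ticks) and with a covariate for dental epithelium, the mean log2 CPM of its markers (triangles). The intervals of Klk4 (0.72 to 2.43) and Slc24a4 (0.21 to 2.45) lie above 0 before adjustment, and those of Amelx and Enam are the widest.

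Set against each other, the stages differed less between genotypes than between libraries. The mean log2 CPM of the 4 secretory genes minus that of the 6 maturation genes was 6.92, 5.18 and 6.92 in Arid1a cKO replicates 1 to 3, against 6.45, 6.59 and 8.22 in control replicates 1 to 3. Means were 6.34 ± 1.01 in Arid1a cKO and 7.09 ± 0.983 in control (SD, n = 3 each), a difference of -0.75 on the log2 scale that is smaller than the spread within either group. The values of the groups overlapped, and the difference was -0.16 without Arid1a cKO replicate 2 and -0.18 without control replicate 3. No test was made of this score, because the members were chosen with earlier results of these data known.

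The ratio of the enamel proteases is a description of a pair chosen after its values were seen, so that its separation partly follows from the choice. Klk4 was at 3.39%, 3.51% and 3.43% of the CPM of Mmp20 in Arid1a cKO replicates 1 to 3, against 0.745%, 0.892% and 0.866% in control replicates 1 to 3. The other ratio of a secretory to a maturation gene that was computed, Mmp20 over Fam20a, overlapped, at 2.41, 1.84 and 1.78 in Arid1a cKO replicates 1 to 3, against 2.25, 1.75 and 3.03 in control replicates 1 to 3. The Klk4 counts behind the control values are small, and the 14 counts of Klk4 in control replicate 2 have an exact 95% Poisson interval of 7.65 to 23.5 counts. In proportion to the 14 counts, this interval is wider than the spread among the control ratios in proportion to their level.

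**Figure D4:**
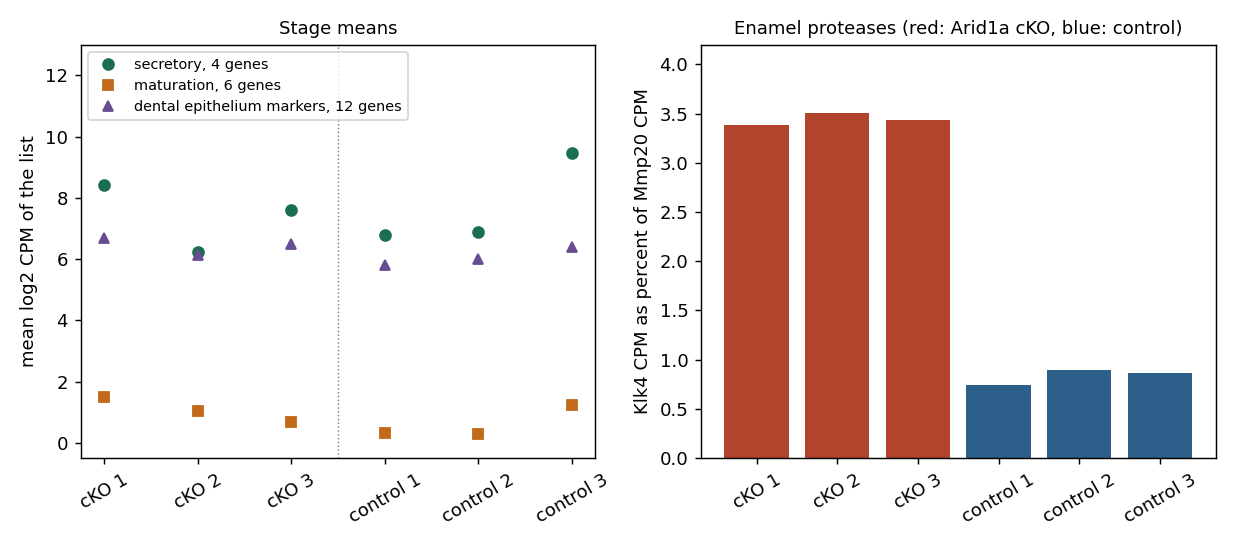
Left, mean log2 CPM of the secretory genes, the maturation genes and 12 dental epithelium markers in each library. Right, the CPM of Klk4 as a percent of that of Mmp20, at 3.39% to 3.51% in the Arid1a cKO libraries and 0.745% to 0.892% in the control libraries, a pair chosen after its values were seen.

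Genes near the mean profile of each stage were sought among 14925 other genes with a mean of at least 2 CPM, by the root mean square difference of centred log2 CPM over the 6 libraries. The 4 secretory genes did not lie close together by this measure, as Amelx lay 1.54 from Ambn and 1.62 from Mmp20. The measure counts how widely a gene varies as well as where it is high or low. Amelx and Enam varied most and so weigh most in the mean of the 4 genes. Among the 5 nearest to the mean of the 4 secretory genes were Ctnna2 (0.315), Sox21 (0.353), Calb1 (0.354) and Esyt3 (0.407). Calb1, the calcium buffer calbindin, had 124, 14.2 and 51.9 CPM in Arid1a cKO replicates 1 to 3, against 32.2, 34.1 and 289 CPM in control replicates 1 to 3. It repeated the high value of control replicate 3 and the low value of Arid1a cKO replicate 2. The nearest to the mean of the 6 maturation genes were Tmem35a (0.138), Ggct (0.138), Gm21596 (0.151), Rasgrp2 (0.154) and Krt15 (0.155). Among the enamel genes themselves the closest pair was Mmp20 and Fam20a (0.285), Amelx lay nearest to Enam (0.802), and Klk4 had no partner closer than Ambn (0.758). None of the neighbours named here was called between genotypes by edgeR, with adjusted p from 0.352 to 0.839.

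Other genes of enamel formation were taken from 3 lists. Among further genes linked to enamel, 1 of 14 tested was lower and 0 were higher, beside 2.46% of all genes lower and 1.5% higher. The gene that fell was Ltbp3, a binding partner of latent TGF-beta whose human mutations affect enamel, at 299, 273 and 274 CPM in Arid1a cKO replicates 1 to 3, against 421, 387 and 426 CPM in control replicates 1 to 3 (log2 fold change -0.54, SE 0.0754, edgeR adjusted p = 0.0148). It missed the threshold without Arid1a cKO replicate 3 (adjusted p = 0.0629) and without control replicate 1 (0.0532) or 3 (0.0582), and also with the mean level of dental epithelium markers as covariate (0.0527). Cnnm4, a magnesium transporter gene linked to enamel in humans, had 74.3, 115 and 93.2 CPM in Arid1a cKO replicates 1 to 3, against 136, 129 and 134 CPM in control replicates 1 to 3, and did not pass by edgeR (log2 fold change -0.50, adjusted p = 0.107). Fam20c, the kinase that phosphorylates secreted enamel and dentin proteins, had 64.8, 52.8 and 58.2 CPM in Arid1a cKO replicates 1 to 3, against 35.5, 21.4 and 43.2 CPM in control replicates 1 to 3, and did not pass by edgeR (log2 fold change 0.81, adjusted p = 0.126). The groups were separate for both genes, and DESeq2 called Cnnm4 lower and Fam20c higher (adjusted p = 0.00928 and 0.00288). The enamel-linked phosphatase gene Acp4 had 5.91, 0.352 and 3.23 CPM in Arid1a cKO replicates 1 to 3, against 0.605, 1.05 and 10.4 CPM in control replicates 1 to 3, a profile close to those of Amelx and Enam (edgeR adjusted p = 0.917).

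Of 15 ion transport genes tested, 2 were lower and 0 higher, beside 2.46% of all genes lower and 1.5% higher. Slc4a4, a sodium bicarbonate cotransporter, had 59.4, 52.6 and 59.5 CPM in Arid1a cKO replicates 1 to 3, against 110, 91.6 and 114 CPM in control replicates 1 to 3 (log2 fold change -0.88, SE 0.0946, edgeR adjusted p = 0.00948). It passed in all 16 alternatives. Slc26a7, an anion transporter, had 53.9, 62.4 and 59.2 CPM in Arid1a cKO replicates 1 to 3, against 122, 98.5 and 79.6 CPM in control replicates 1 to 3 (log2 fold change -0.77, SE 0.15, adjusted p = 0.0409), and passed in 8 of 16. It missed without any one of the libraries except control replicate 3, with adjusted p of up to 0.121. Both genes are expressed far above Slc24a4 here in CPM and also occur in other cell types. Of 12 regulators tested, 2 were lower and 0 higher, beside the same shares of all genes. These were the homeobox gene Msx2 (log2 fold change -0.49, SE 0.0763, adjusted p = 0.0194) and the zinc finger gene Trps1 (log2 fold change -0.41, SE 0.0851, adjusted p = 0.0424), which passed in 12 and 7 of 16 alternatives. Msx2 missed without Arid1a cKO replicate 2 or 3 or control replicate 3, and Trps1 without any one library except Arid1a cKO replicate 2, with adjusted p of up to 0.127. With the mean level of dental epithelium markers as covariate, the calls of Msx2 (edgeR adjusted p = 0.111), Trps1 (0.224) and Slc26a7 (0.108, log2 fold change -0.49) were lost as well. The forkhead gene Foxo1 had 102, 137 and 137 CPM in Arid1a cKO replicates 1 to 3, against 193, 227 and 167 CPM in control replicates 1 to 3, and did not pass (log2 fold change -0.64, edgeR adjusted p = 0.0646). Sp6, a factor required for ameloblast differentiation, had 464 to 553 CPM in Arid1a cKO and 384 to 520 CPM in control (log2 fold change 0.15, adjusted p = 0.527).

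Markers of the epithelium and of other cell types are set beside these values. Of 12 dental epithelium markers, all measured, 1 was called higher and 0 lower, beside 1.5% and 2.46% of all genes. The marker called was the adhesion gene Epcam (log2 fold change 0.47, edgeR adjusted p = 0.0199), and the median log2 fold change of the 12 was 0.47. The log2 fold change was positive for 10 of the 12 and negative for 2, Trp63 (-0.20) and Perp (-0.33), with edgeR adjusted p of 0.448 and 0.268. Epcam passed in 11 of 16 alternatives and missed without Arid1a cKO replicate 3 (edgeR adjusted p = 0.0702) or any 1 control library (0.0525 to 0.077). Its highest adjusted p over all alternatives was 0.127. The summed level of the 12 markers was 2099, 1310 and 1759 CPM in Arid1a cKO replicates 1 to 3, against 1117, 1258 and 1661 CPM in control replicates 1 to 3. Within each group the libraries stood in the same order as for Amelx and Enam, whereas over both groups together the order differed. Control replicate 3 had a lower sum of these markers than Arid1a cKO replicate 1 and 3.02-fold its Amelx level. With their mean log2 CPM as a covariate, Amelx was called lower in Arid1a cKO (log2 fold change -3.75, edgeR adjusted p = 0.0467), in a fit that called 0.291% of all genes lower. Enam was at -3.28 in that fit and missed (edgeR adjusted p = 0.0527). The fitted log2 difference was 1.34 for Klk4 (edgeR adjusted p = 0.273) and 0.75 for Slc24a4 (0.572). The covariate itself was 6.45 ± 0.276 in Arid1a cKO and 6.08 ± 0.3 in control (SD, n = 3 each), so that it is not fully separate from genotype. Of 6 markers of the stratum intermedium, the cell layer that underlies ameloblasts, 0 were called (median log2 fold change -0.15). Oral epithelium genes, a possible admixture, were low, with 3 of 8 not in the table and sums of 7.20 to 10.9 CPM in Arid1a cKO and 7.04 to 7.63 CPM in control. Odontoblast markers summed to 4101 to 5096 CPM in Arid1a cKO and 1986 to 5380 CPM in control, the low sum being control replicate 2, where Mmp20, Fam20a, Ambn and Klk4 were also lowest. Of 5 odontoblast markers tested, 0 were higher and 2 were lower, beside 1.5% and 2.46% of all genes. The genes called were Nes (log2 fold change -0.86) and Vdr (-1.03), with edgeR adjusted p of 0.0359 and 0.0162. Of those not called, Dspp (0.27) and Dmp1 (0.36) had positive log2 fold changes and Phex a negative value (-0.38), with edgeR adjusted p of 0.770, 0.682 and 0.707. Nes passed in 8 of 16 alternatives and missed without any 1 library except Arid1a cKO replicate 2, and Vdr passed in 13 and missed without Arid1a cKO replicate 3 or control replicate 1 or 2. Of 5 osteoblast markers, 1 was called lower, beside 2.46% of all genes, and their median log2 fold change was -0.57. The marker called was Alpl (edgeR adjusted p = 0.0379), which passed in 8 of 16 alternatives and missed without any 1 library except control replicate 2. The osteoblast markers summed to 1640 to 2021 CPM in Arid1a cKO and 1769 to 3784 CPM in control. Skeletal muscle markers summed to 1.92 to 2.88 CPM in Arid1a cKO replicates, against 2.39, 22.4 and 6.57 CPM in control replicates 1 to 3, so that control replicate 2, with its low Mmp20, Fam20a, Ambn and Klk4, held the most. The part of any of these cell types in the enamel values was not tested.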

How the data were processed

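Total RNA of the proximal incisor region was sequenced by the submitters as single-end reads of 75 cycles, from samples with RNA integrity above 9.0, per the labels' protocols. The authors deposited estimated counts per gene, for which the submitters' processing notes list STAR 2.6.1d, Partek and mm10; the annotation release, the counting mode and its strand setting are not stated. The estimated counts as deposited are not all whole (54% to 57.6% of values per library lie within 0.01 of a whole number) and were rounded here. The smallest total of a gene in that table is 10. A second deposited table holds a normalized signal per gene, which equals the authors' count plus 1 divided by 1 factor per library, to within 0.000674%.

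Library totals of 27300932 to 37908478 set the counting precision, and intervals for single counts cover counting error only. Genes were filtered with filterByExpr (minimum count 10), leaving 19613 of 25703, scaled by TMM and tested with the robust quasi-likelihood F test of edgeR 4.0.16 in R 4.3.3, two-sided, with Benjamini-Hochberg adjustment over all genes tested and a threshold of 0.05. Log2 CPM used a prior count of 2. Alternatives used DESeq2 1.42.0 and limma 3.58.1 (limma-voom, and limma on log2 of the normalized table plus 1 or 5 without a filter), other scalings and filters, non-robust estimation, each library left out, and the mean log2 CPM of the dental epithelium markers as a covariate. The scripts were tested on simulated data. Groups follow the genotype labels, and replicates are numbered in accession order. The members and all gene lists were chosen with earlier results of these data known. Named genes are all members, Arid1a, up to 4 genes of each list by smallest p, and the 5 genes nearest in profile to each stage, some of which are not reported here; others named were chosen after their values were seen. Exon lengths and overlaps come from GENCODE M21, whose gene starts and ends match all 10 members. Motif searches used RefSeq promoters.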

Additional observations from a re-analysis of the deposited data

How the results depend on the processing

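No paired analysis was possible because the library titles of the groups share fewer than 2 numbers; the protocol speaks of 3 pairs of samples, no label says which libraries pair, and the tests ignore any pairing. Arid1a was called lower in every alternative run, with an adjusted p of at most 0.0421 and log2 fold changes of -0.75 to -0.65 with 1 library left out. Of the enamel genes, 1 was called higher by DESeq2 and by limma on the authors' table with either pseudocount, Klk4 each time. With the dental epithelium covariate 1 was called lower, Amelx, and of the 5 pathway genes called without it only Slc4a4 remained (Ltbp3, Slc26a7, Msx2 and Trps1 were lost), while Acp4, Itgb6 and Cftr passed. With 1 library left out, 0 were higher and 0 to 1 lower, the 1 being Mmp20 without control replicate 2. Over all genes, the counts were 812 higher and 1093 lower by DESeq2, 258 and 314 lower by limma on the authors' table with pseudocounts of 1 and 5, 28 higher and 57 lower with the covariate, and 55 to 193 higher and 98 to 339 lower with 1 library left out, against 295 and 482 in the edgeR fit. Of the pathway lists, 3 genes were higher by DESeq2, 3 were lower by limma on the authors' table with either pseudocount, and 0 to 2 were higher and 1 to 4 lower with 1 library left out, against 0 and 5. Several log2 fold changes near 0 or with wide intervals changed sign. Ambn was -0.28 with the covariate and -0.074 to 0.67 with 1 library left out. Odam was -0.022 by limma-voom, -0.0088 and -0.0018 by limma on the authors' table with pseudocounts of 1 and 5, -0.67 with the covariate and -0.24 to 0.43 with 1 library left out. The ranges with 1 library left out were -2.50 to 0.98 for Amelx, -2.04 to 1.81 for Enam, -1.08 to 0.80 for Amtn, -0.090 to 0.33 for Wdr72 and -0.49 to 0.087 for Fam20a. The cause of these changes was not tested. The sign reversed for Amelx, Enam and Amtn without control replicate 3, for Ambn without control replicate 2, for Fam20a without control replicate 1, for Odam when control replicate 1 or 2 was omitted, and for Wdr72 when Arid1a cKO replicate 1 or 2 or control replicate 1 was omitted. The difference between the stages kept its sign, at -1.06 to -0.16 with 1 library left out, -1.57 with medians, -0.20 with summed CPM, and -0.76 and -0.68 with prior counts of 0.5 and 10. Relative to the dental epithelium markers, the difference between genotypes was -0.66 for the secretory mean and 0.08 for the maturation mean, against -0.29 and 0.45 without that reference. Odam and Wdr72 rest on few reads, with 6 to 23 counts a library.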

Other observations

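Ambn, Enam, Amtn and Odam lie in a row on chromosome 5, in a window of 621 kb (87885029 to 88506049, mm10). It holds 5 genes of the count table, the fifth being Gm43431, and 0 of them were called between Arid1a cKO and control by edgeR. Enam starts 19.4 kb beyond the end of Ambn on the same strand, yet the widest ratio between libraries was 55.7 for Enam and 2.55 for Ambn.

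The genes nearest in profile to single enamel genes were read off after their values were seen. For Mmp20 they were Lox, which encodes a collagen cross-linking enzyme (root mean square difference 0.131), Tg (0.18) and Phex (0.182), which is among the odontoblast markers. For Fam20a the nearest was Col1a1 (0.097), a collagen gene of odontoblasts and bone. For Slc24a4 they were Cryab (0.153), Dpep1 (0.182) and Sfrp4 (0.193), each lowest in control replicate 1 as Slc24a4 was. Dpep1 had 137, 71.8 and 103 CPM in Arid1a cKO replicates 1 to 3, against 16.1, 53.6 and 54.1 CPM in control replicates 1 to 3 (edgeR adjusted p = 0.227). Among the 5 nearest to Klk4 were Gsc (0.377) and Slc6a13 (0.39), which were called higher in Arid1a cKO with edgeR adjusted p of 0.0142 and 0.0215. Klk4 itself did not pass in that test. Nor did the others of the 5, Gm35853 (0.322), Pla2g2f (0.37) and Mamdc2 (0.405), with edgeR adjusted p of 0.0822, 0.272 and 0.0716. Genes chosen for a profile like that of Klk4, whose groups are separate, are higher in Arid1a cKO partly by that choice. Gsc, the homeobox gene goosecoid, had 5.86, 7.74 and 6.99 CPM in Arid1a cKO replicates 1 to 3, against 2.68, 1.85 and 2.78 CPM in control replicates 1 to 3.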
